A study of Mus musculus with 4 samples.

Results

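The 9 granzyme genes Gzma, Gzmb, Gzmc, Gzmd, Gzme, Gzmf, Gzmg, Gzmk and Gzmm and the perforin gene Prf1 were followed through single T cells of B16 melanoma. They were taken by symbol, 10 of the 32285 genes in the tables of both libraries, in all cells that had 600 or more genes and less than 30% of their UMIs from mitochondria (unique molecular identifiers, one per counted RNA molecule). One library came from VISTA-KO mice, which carry Vsir fl/fl and CD4-Cre, and the other from WT littermates, which carry Vsir fl/fl without Cre, so both groups have the floxed gene for the inhibitory receptor VISTA. CD4-Cre acts while T cells develop in the thymus, and therefore deletes the gene in CD4+ and CD8+ T cells alike. All mice bore B16bl6 tumors and received a peptide vaccine and the anti–CTLA-4 antibody 9H10. The methods name both sexes, and give 6 to 8 weeks of age for mice of the tumor models without naming these libraries. Tumor-infiltrating cells were taken around day 18 after treatment, enriched for CD4+ and CD8+ cells and sorted with antibodies to CD4 and CD8. The tumors of each genotype were pooled, 5 to 6 mice by the methods and 6 to 8 tumors by the legend, so that each genotype is 1 sample, the spread between mice is unknown and the genotypes could not be compared by a test. A 3′ kit with feature barcodes is named in the labels, whereas the methods and the receptor contigs call for a 5′ kit.

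Cytotoxic lymphocytes store perforin and granzymes in granules and release them at the contact with a target cell. Perforin forms pores, and the granzymes, which are serine proteases, enter through them. Granzyme B cuts after aspartate and starts apoptosis through caspases, granzymes A and K cut after basic residues, and granzyme M cuts after methionine or leucine. Mice carry a further group of genes next to Gzmb, among them Gzmc, Gzmd, Gzme, Gzmf and Gzmg, which are known from strongly stimulated killer cells. Regulatory T cells can also make granzyme B.

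The genes lie on 3 chromosomes of the RefSeq annotation of GRCm38.p6. Gzmb, Gzmc, Gzmf, Gzmg, Gzmd and Gzme share 144.7 kb of chromosome 14, from 56117619 to 56262334, with Gzmb at one edge (56258836 to 56262334). Gzma (113093824 to 113100981) and Gzmk (113171630 to 113180965) are neighbors on chromosome 13. Prf1 (61297751 to 61304684) and Gzmm (79689020 to 79695261) are far apart on chromosome 10. The 250 bases upstream of the listed transcription start are printed for Gzmb and Gzma, which went opposite ways between the CD8 cells of the libraries. Those of Gzmd and Gzme are printed too, since their sequences are nearly the same. The UMIs of these 2 genes ran together over single CD8 cells, but only 4 cells of each library held a Gzmd UMI. The 4 sequences follow. They are the minus-strand regions chr14:56262335-56262584, chr13:113100982-113101231, chr14:56132594-56132843 and chr14:56120626-56120875, read 5′ to 3′, and capitals mark matches to TGTGGT (a core bound by Runx factors) or TGANTCA (an AP-1 motif) on either strand.
Gzmb: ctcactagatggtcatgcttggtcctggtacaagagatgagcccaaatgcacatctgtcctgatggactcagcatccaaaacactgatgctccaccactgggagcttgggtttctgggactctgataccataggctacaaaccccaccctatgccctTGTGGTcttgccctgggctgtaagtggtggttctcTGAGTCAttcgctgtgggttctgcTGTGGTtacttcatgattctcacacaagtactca
Gzma: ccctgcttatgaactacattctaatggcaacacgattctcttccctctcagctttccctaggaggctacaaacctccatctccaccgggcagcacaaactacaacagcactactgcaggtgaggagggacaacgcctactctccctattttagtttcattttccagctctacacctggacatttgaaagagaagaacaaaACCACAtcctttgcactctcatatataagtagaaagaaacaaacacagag
Gzmd: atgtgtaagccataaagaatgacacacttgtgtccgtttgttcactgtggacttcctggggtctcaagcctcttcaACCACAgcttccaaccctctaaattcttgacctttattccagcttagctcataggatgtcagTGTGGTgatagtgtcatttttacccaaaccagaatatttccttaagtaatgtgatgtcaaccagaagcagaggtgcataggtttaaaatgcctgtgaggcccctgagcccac
Gzme: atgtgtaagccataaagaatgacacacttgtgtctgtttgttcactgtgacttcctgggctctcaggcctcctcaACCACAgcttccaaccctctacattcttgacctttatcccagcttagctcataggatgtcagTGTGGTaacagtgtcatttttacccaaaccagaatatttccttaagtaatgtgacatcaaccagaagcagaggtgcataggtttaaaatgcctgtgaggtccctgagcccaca
TGTGGT stood in this window of 9 of the 10 genes (all but Gzmk, for Gzmm in the first of its 2 listed promoters), against 14.0% of all 32851 promoters in the table. TGANTCA stood in 1 of the 10, Gzmb, against 6.75% of all promoters. TGACGTCA, a cyclic AMP response element, stood in 3 of them, Gzmc, Gzmf and Gzmg, against 1.55%. No match of one motif overlapped a match of another. The windows of Gzmd and Gzme were identical at 94.8% of 251 aligned positions, and the 10 pairs among Gzmc, Gzmd, Gzme, Gzmf and Gzmg ranged from 71.5% to that value. All of these alike windows are among the 9 with TGTGGT, and the 3 with TGACGTCA are among them. Their matches are therefore not independent of each other. Reads that fit several of these genes equally well are not counted by Cell Ranger, so the UMIs of Gzmd, Gzme and Gzmg are uncertain.

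Cells were put into classes by their own UMIs. CD8 cells held UMIs of Cd8a or Cd8b1 but none of Cd4 (5482 in WT and 4301 in VISTA-KO), conventional CD4 cells had a Cd4 UMI and no Foxp3 UMI (1661 and 2983), and regulatory cells had both a Foxp3 and a Cd4 UMI (1491 and 1260). Cells with at least 2 UMIs of Siglech, a gene of plasmacytoid dendritic cells, were kept apart (221 and 138). Median UMIs per cell lay between 3922 and 5196 in CD8 and conventional CD4 cells, and were 8739 in WT against 5908 in VISTA-KO for regulatory cells. In the Siglech cells 6 of 6 plasmacytoid markers were present, with a sum of 11141 and 12861 CPM (UMIs scaled to a total of 1000000 in the class) against 274 to 362 CPM in the T cell classes. Through UMIs of Cd4, Cd8a or Cd8b1, 211 of the 221 and 124 of the 138 met the rule of a T cell class as well. A Cd8b1 UMI was held by 69.7% and 63.8%, but a Cd3e UMI by only 33.9% and 25.4%. The rule alone thus does not show how many of these cells held RNA of T cells. Of the Siglech cells, 26.2% and 18.8% were marked as doublets. A Foxp3 UMI was held by 6.26% of WT and 4.05% of VISTA-KO CD8 cells, and the part of these cells in the CD8 levels was not tested. The classes with CD4 also held CD8 chains. Cd8a or Cd8b1 UMIs were found in 29.9% of conventional CD4 and 50.9% of regulatory cells of WT, and in 19.7% and 29.1% of those of VISTA-KO. Melanoma transcripts (4 of 4 markers present) summed to 10.3 CPM in WT against 197 CPM in VISTA-KO CD8 cells, 5.76 and 192 CPM in regulatory cells and 225 and 15.9 CPM in conventional CD4 cells, and the 3 natural killer markers, of another granzyme-bearing cell, to between 2.43 and 6.37 CPM in the T cell classes. The 3 gamma-delta T cell markers, all present, summed to 8.84 CPM in WT against 32.1 CPM in VISTA-KO CD8 cells, 6.62 and 29.4 CPM in regulatory cells and 18.7 and 24.8 CPM in conventional CD4 cells. The libraries shared 145 cell barcodes and 3 clonotypes. In CPM alone, fewer cells with a transcript and less of it per cell cannot be told apart. The melanoma transcripts lay in few CD8 cells. A Pmel UMI was held by 0.365% of WT and 0.279% of VISTA-KO CD8 cells, with 112 and 2484 UMIs in all. The shares were 0.328% and 0.302% for Mlana, 0.347% and 0.488% for Dct and 0.292% and 0.233% for Tyrp1.

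The 10 genes made up 0.178% of all UMIs of CD8 cells in WT and 0.234% in VISTA-KO. In regulatory cells they made up 0.101% and 0.130%, in conventional CD4 cells 0.0826% and 0.0716%, and in Siglech cells 0.0384% and 0.0296%. Gzmb gave 42.7% of these UMIs in WT CD8 cells and 59.3% in VISTA-KO CD8 cells. In regulatory cells its part was larger, 61.1% and 84.1%. Intervals here and below are exact 95% intervals, Poisson for CPM, Clopper-Pearson for shares and a binomial split for ratios, and cover counting error only.

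Gzmb transcripts were found in each of the T cell classes. Its level in WT was 758.9 CPM (750.0 to 767.8) in CD8 cells, 616.6 CPM (605.1 to 628.4) in regulatory cells, 408.1 CPM (395.5 to 421.0) in conventional CD4 cells and 156.2 CPM (141.3 to 172.3) in Siglech cells. In VISTA-KO it was 1389 CPM (1375 to 1403), 1094 CPM (1073 to 1115), 427.7 CPM (417.5 to 438.2) and 170.6 CPM (149.8 to 193.4), in the same order of classes. The order of the classes was thus shared by both libraries, and no neighbors in it overlapped in their counting intervals. After each cell was thinned to 2000 UMIs, which left out 290 and 186 shallower CD8 cells and 45 and 51 regulatory cells, a Gzmb UMI was found in 45.6% of WT and 52.2% of VISTA-KO CD8 cells, and in 42.0% and 46.7% of regulatory cells. Siglech cells, whose median depth was 9181 and 9486 UMIs, gave 8.64% and 10.2% (unthinned, 21.3% and 21.7%, against 58.8% and 62.3% in CD8 cells). Of the Siglech cells with a Gzmb UMI, 76.6% and 60% were marked as doublets, and of those with a Gzmk UMI 82.5% and 66.7%. The part of these doublets in the shares was not tested.

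Gzmk and Gzma were most abundant in CD8 cells. Gzmk stood at 460.3 CPM in WT against 506.8 CPM in VISTA-KO CD8 cells, at 225.0 and 166.1 CPM in conventional CD4 cells, at 156.5 and 85.8 CPM in regulatory cells and at 64.4 and 48.9 CPM in Siglech cells. Gzma stood at 337.0 and 201.1 CPM in CD8 cells, at 83.5 and 59.2 CPM in conventional CD4 cells, at 147.4 and 72.8 CPM in regulatory cells and at 62.5 and 58.7 CPM in Siglech cells. Gzma was the more unevenly spread over CD8 cells. The 10% of cells with most UMIs of the gene held 94.1% of its UMIs in WT and 99.1% in VISTA-KO, where those of Gzmk held 38.4% and 44.0%. A Gzma UMI was found in 13.8% and 7.95% of thinned CD8 cells against 3.64% and 2.19% of thinned Siglech cells, and its shares in VISTA-KO conventional CD4 cells (2.37%) and regulatory cells (2.32%) were close to those of the Siglech cells.

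Prf1, the pore former, was at 194.1 CPM (189.6 to 198.7) in WT against 198.3 CPM (193.1 to 203.6) in VISTA-KO CD8 cells. It was at 88.8 and 44.3 CPM in conventional CD4 cells, 78.2 and 39.0 CPM in regulatory cells and 77.3 and 16.1 CPM in Siglech cells. In WT the interval of Siglech cells overlapped those of both CD4 classes, and in VISTA-KO the CD4 classes overlapped each other. Gzmm was low, at 13.4 and 15.5 CPM in CD8 cells, 5.34 and 6.20 CPM in conventional CD4 cells, and 4.17 and 2.53 CPM in regulatory cells. The remaining 5 genes, all of the group on chromosome 14, stayed at or below 15.1 CPM in each of the 3 T cell classes.

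**Figure D1:**
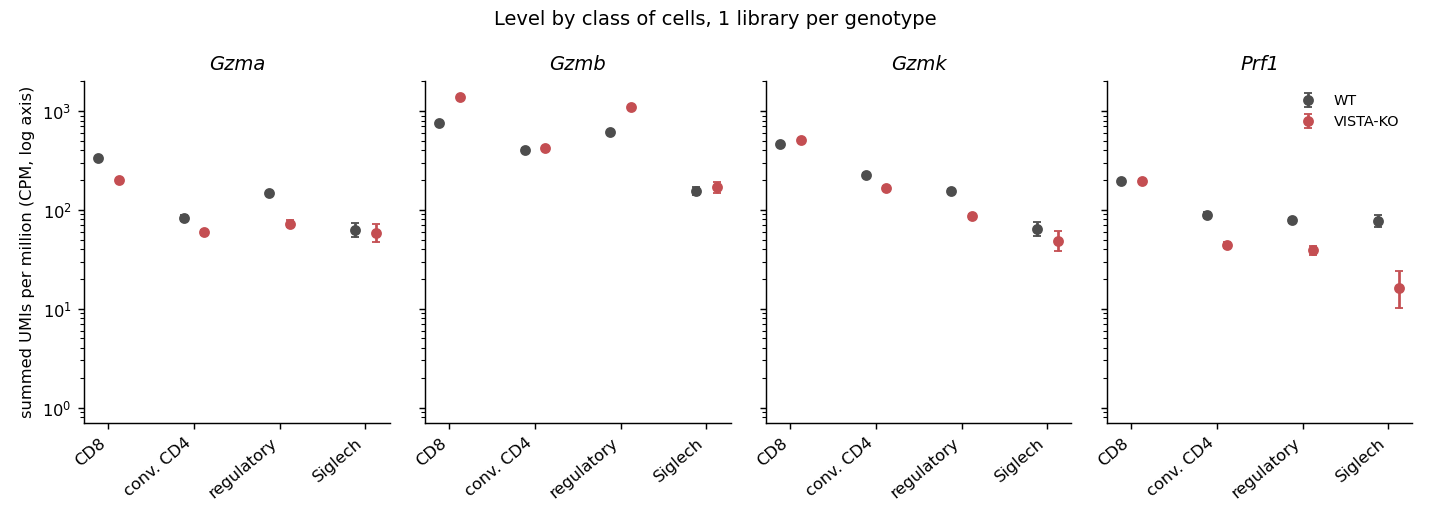
Level of Gzma, Gzmb, Gzmk and Prf1 (CPM, log axis) in CD8, conventional CD4, regulatory and Siglech cells of the WT and the VISTA-KO library. Points are the sums of 1 library per genotype and bars exact 95% Poisson intervals. Gzmb stands at 758.9 CPM in WT against 1389 CPM in VISTA-KO CD8 cells, and at 616.6 and 1094 CPM in regulatory cells.

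The comparison of the genotypes asks whether T cells without VISTA carry more cytotoxic transcripts. A gene is called here when it differs by at least 1.5-fold on log2(CPM + 5) and reaches 20 CPM in 1 of the libraries. In CD8 cells 1 of the 4 granzyme and perforin genes at that level was called higher in VISTA-KO, Gzmb, against 0.824% of all 6065 genes, and 1 was called lower, Gzma, against 0.594%. Gzmb was 1.83 times as high (1.80 to 1.86), a log2 ratio of 0.87, and Gzma 0.597 times (0.578 to 0.616), a log2 ratio of -0.73. Gzmk had a ratio of 1.10 (1.08 to 1.13), which fell below 1 when each cell counted alike, when cells were thinned or when dividing cells were left out (log2 ratios of -0.09, -0.13 and -0.08). Prf1 had a ratio of 1.02 (0.986 to 1.06). The median log2 ratio of the 4 genes was 0.08, and that of all 6065 genes was -0.03. The part of the melanoma and gamma-delta T cell transcripts, which were also higher in VISTA-KO CD8 cells, was not tested.

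The 6 other genes were below 20 CPM in both libraries. Gzmm gave a ratio of 1.16 (1.01 to 1.32). Gzmc was at 5.25 CPM in WT against 15.1 CPM in VISTA-KO CD8 cells, but 1 cell held 38.4% of its 422 UMIs in VISTA-KO and 10 cells held 85.1%. Gzmf was at 6.77 and 12.8 CPM, and 10 cells held 90.0% and 95.8% of its UMIs. Gzmd had 44 and 7 UMIs, each in 4 cells, and Gzme 65 UMIs in 7 cells and 66 in 6 cells. Gzmg had 3 UMIs in 1 WT cell and 0 in VISTA-KO, where the exact interval reached up to 0.132 CPM. For these genes a few cells set the level of a library.

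The difference in Gzma varied with the clonotypes that were counted. A clonotype is the set of cells that share the V gene and CDR3 of both receptor chains. No clonotype could be given to 1330 WT and 848 VISTA-KO CD8 cells (24.3% and 19.7%), in which Gzma was at 354.7 and 180.6 CPM. These cells stay in the sets without the largest clonotypes and are left out of the results by clonotype size. The largest CD8 clonotype of WT (1034 cells, 18.9% of CD8 cells) held 26.9% of the Gzma UMIs of the class, at 667.3 CPM, and that of VISTA-KO (291 cells, 6.77%) held 1.51%, at 37.5 CPM. Without the largest clonotype of each library Gzma was at 285.0 and 215.5 CPM, a ratio of 0.756 (0.731 to 0.782), under the 1.5-fold limit. Without the 2 largest it was at 304.5 and 226.4 CPM, a ratio of 0.743 (0.719 to 0.769), also under that limit. Among cells alone in their clonotype the direction was turned, with 122.2 CPM in WT against 147.0 CPM in VISTA-KO, which gave a ratio of 1.20 (1.09 to 1.33). Gzmb kept its direction in each case. It was at 723.4 and 1240 CPM without the largest clonotype, at 719.8 and 1115 CPM without the 2 largest, and at 383.9 and 766.3 CPM in cells alone in their clonotype, with ratios of 1.71 (1.69 to 1.74), 1.55 (1.52 to 1.58) and 2.00 (1.90 to 2.10). Prf1 was 1.34 times as high (1.19 to 1.51) in VISTA-KO among the cells alone in their clonotype, at 79.4 and 106.3 CPM, and 0.955 times (0.919 to 0.992) without the 2 largest clonotypes.

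In conventional CD4 cells, 0 of the 4 genes at 20 CPM was called higher, against 1.01% of all 6261 genes, and 1, Prf1, was called lower, against 1.1%. Prf1 had a ratio of 0.499 (0.451 to 0.552), Gzma of 0.709 (0.644 to 0.780), Gzmk of 0.738 (0.697 to 0.782) and Gzmb of 1.05 (1.01 to 1.09). In regulatory cells, 1 of 4 was called higher, Gzmb, against 1.93% of all 6274 genes, and 3 were called lower, Gzma, Gzmk and Prf1, against 1.79%. Gzmb had a ratio of 1.77 (1.73 to 1.82), Gzma of 0.494 (0.453 to 0.537), Gzmk of 0.549 (0.507 to 0.594) and Prf1 of 0.499 (0.444 to 0.560). The median log2 ratio of the 4 genes was -0.44 in conventional CD4 cells and -0.87 in regulatory cells, and that of all genes was -0.04 and -0.01.

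In the CD4 classes, Gzma, Gzmk and Prf1 were higher in cells with CD8 chain UMIs, which were themselves more frequent in WT. Regulatory cells with a Cd8a or Cd8b1 UMI had median UMIs of 13684 in WT and 9150 in VISTA-KO, and 33.2% and 51.2% of them were marked as doublets, against 9.29% and 15.0% of those without, whose median UMIs were 5234 and 5137. In the regulatory cells without a CD8 chain UMI (732 and 893 cells), Gzmk was at 10.7 CPM (8.09 to 14.0) in WT against 22.1 CPM (18.4 to 26.4) in VISTA-KO, where those with one were at 216.6 and 174.7 CPM. Gzma was at 9.38 and 24.5 CPM in the former and at 204.4 and 140.1 CPM in the latter. A Gzma UMI was found in 1.01% and 0.708% of the thinned cells without a CD8 chain UMI, an order opposite to that of the CPM. Prf1 was at 97.2 and 65.1 CPM with a CD8 chain UMI, a ratio of 0.670 (0.583 to 0.767). Without one it was at 32.2 and 20.3 CPM, a ratio of 0.629 (0.491 to 0.805), so that it was lower in VISTA-KO in both sets. The shares for Gzmk were 1.87% and 3.18%. Like those for Gzma they lay below the shares of Siglech cells (5.91% and 5.84% for Gzmk), some of which were marked as doublets. No difference between the libraries is read for either gene. Prf1 was found in 6.19% and 4.72% of these cells, with overlapping intervals, against 3.18% and 1.46% of Siglech cells. Its log2 ratio of -0.56 in them, taken on CPM + 5, was under the 1.5-fold limit, while the plain ratio of 0.629 was past it. Gzmb did not depend on the CD8 chain UMIs in this way. Its level without them was 612.8 CPM (591.5 to 634.6) in WT against 1186 CPM (1158 to 1215) in VISTA-KO, which gave a ratio of 1.94 (1.86 to 2.02), and was found in 35.5% and 46.1% of the thinned cells. The part of doublets and free RNA in the values of the whole classes was not tested.

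In conventional CD4 cells all 4 genes were lower without the CD8 chain UMIs. With one (497 and 587 cells), Gzmb was at 605.9 and 739.9 CPM, Gzmk at 313.7 and 294.7 CPM, Gzma at 144.0 and 81.9 CPM and Prf1 at 160.8 and 104.3 CPM. Without a CD8 chain UMI (1164 and 2396 cells), Prf1 was at 12.3 CPM in WT against 16.0 CPM in VISTA-KO, which gave a ratio of 1.30 (0.957 to 1.78), and Gzma at 19.3 and 48.5 CPM, a ratio of 2.52 (2.01 to 3.18). Gzmb was at 197.8 and 280.2 CPM, a ratio of 1.42 (1.32 to 1.53), and Gzmk at 130.6 and 105.3 CPM, a ratio of 0.806 (0.730 to 0.892). Prf1 was found in 1.63% and 2.80% of these cells after thinning and Gzma in 1.53% and 2.09%, and no difference is read from so few cells. Gzmb was found in 9.97% and 15.3%, against 8.64% and 10.2% of Siglech cells. Gzmk was found in 13.1% and 11.8%, with overlapping intervals, against 5.91% and 5.84% of Siglech cells.

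**Figure D2:**
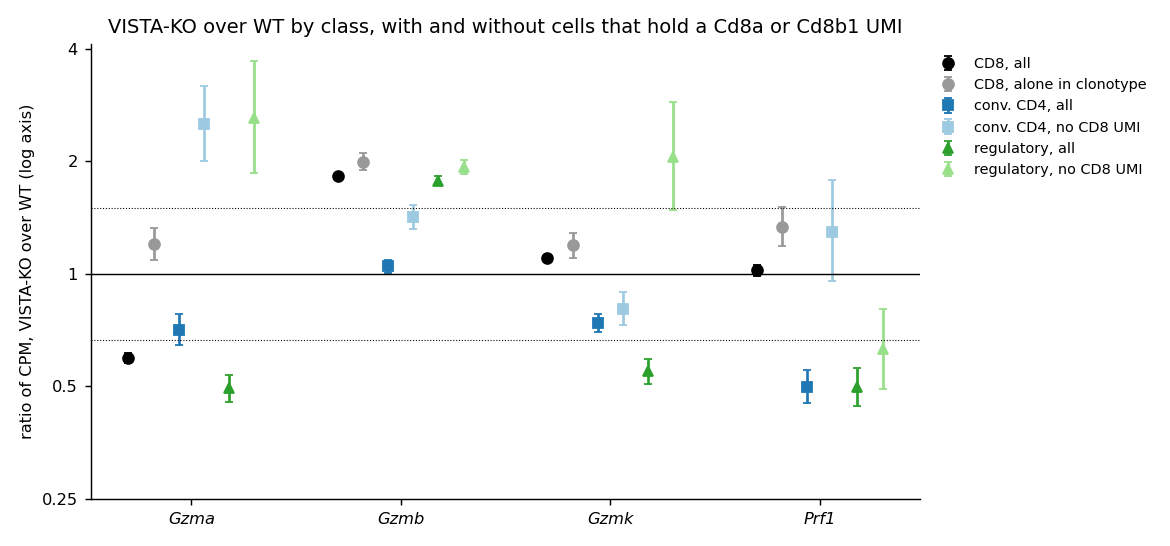
Ratio of CPM, VISTA-KO over WT (log axis), for Gzma, Gzmb, Gzmk and Prf1 in all cells of each class and in the cells alone in their clonotype (CD8) or without a Cd8a or Cd8b1 UMI (CD4 classes). Bars are exact 95% counting intervals and dotted lines mark 1.5-fold. Gzmb lies between 1.05 and 2.00 throughout, whereas Gzma falls below 1 in all cells of each class and above 1 in each of the subsets, which in the CD4 classes hold a Gzma UMI in at most 2.09% of thinned cells.

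Summed together, expanded CD8 clonotypes carried more Gzmb, Gzmk and Prf1 than cells alone in their clonotype. In WT, Gzmb was at 383.9 CPM in 889 cells alone and at 941.6 CPM in the 2158 cells of 23 clonotypes of 20 or more cells, a ratio of 2.45 (2.34 to 2.57). In VISTA-KO it was at 766.3 CPM in 1300 cells alone and at 2405 CPM in the 754 cells of 12 such clonotypes, a ratio of 3.14 (3.04 to 3.24). For Gzmk the ratios were 2.77 (2.60 to 2.96) in WT against 3.53 (3.35 to 3.73) in VISTA-KO, and for Prf1 2.99 (2.69 to 3.32) and 2.53 (2.33 to 2.76). Gzma was 3.21 times as high (2.95 to 3.49) in the large clonotypes of WT and 0.480 times (0.428 to 0.537) in those of VISTA-KO. In VISTA-KO a mean that gives each clonotype the same weight turned the log2 ratio to 0.09. In WT the log2 ratio fell from 1.64 to 0.81 without the largest clonotype. The median over the 23 WT clonotypes was 69.2 CPM, against 122.2 CPM in the cells alone. In WT 4 of the 4 genes at 20 CPM were called higher in large clonotypes, against 4.8% of all 6171 genes, and 0 lower, against 3.79%. In VISTA-KO 3 of 6 were called higher, Gzmb, Gzmk and Prf1, against 7.56% of all 6216 genes, and 3 lower, Gzma, Gzmc and Gzmm, against 6.52%. Gzmc and Gzmm reached 20 CPM through the cells alone and could only be called lower, so of the 3 only Gzma could have been called either way. Gzmm was at 23.7 CPM in the cells alone and 3.80 CPM in the large clonotypes of VISTA-KO, where WT gave 14.9 and 12.2 CPM. Gzmc was at 41.4 and 4.13 CPM there, but most of its UMIs lay in few cells, as above. Median UMIs per cell were 4779 in WT and 5004 in VISTA-KO for the cells alone, 4700 and 6255 for clonotypes of 20 to 99 cells and 4749 and 6920 for larger ones, and the share of cells with a Mki67 or Top2a UMI was 18% and 19.3%, 32.4% and 29.4%, and 20.6% and 44.1%, in the same order.

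The steps between sizes differed by gene. Gzmb in WT was at 645.1 CPM in clonotypes of 2 to 4 cells, 938.4 CPM in those of 5 to 19, 966.4 CPM in those of 20 to 99 and 921.5 CPM in the 2 clonotypes of 100 or more, so that it was level from 5 cells on. In VISTA-KO it was at 1081, 1408, 1177 and 3235 CPM, the last from the 438 cells of 2 clonotypes. Among clonotypes of 20 to 99 cells the ratio of VISTA-KO over WT was 1.22 (1.16 to 1.27), and among those of 100 or more it was 3.51 (3.41 to 3.62). Prf1 peaked in clonotypes of 20 to 99 cells in both libraries, at 341.6 CPM in WT against 339.9 CPM in VISTA-KO, and was lower in the largest ones, at 153.0 and 221.5 CPM. Gzma in VISTA-KO was highest in clonotypes of 2 to 4 cells, at 437.2 CPM against 188.5 CPM in WT, and lowest in those of 100 or more, at 30.7 against 472.0 CPM.

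**Figure D3:**
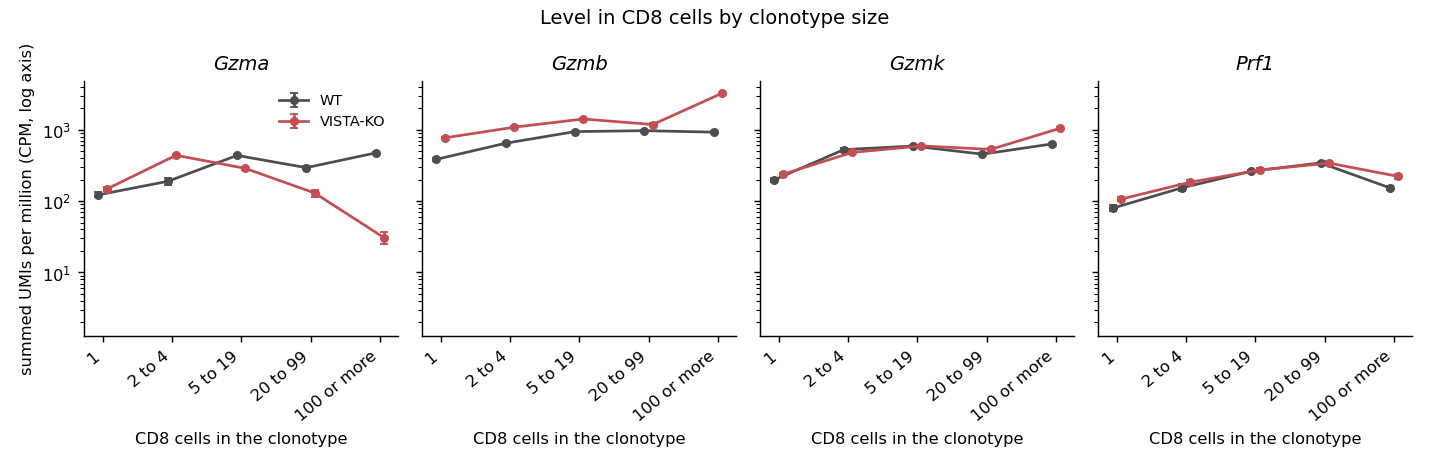
Level of Gzma, Gzmb, Gzmk and Prf1 (CPM, log axis) in CD8 cells by the number of CD8 cells in their clonotype, with exact 95% Poisson intervals. Cells alone in their clonotype are lowest for Gzmb, Gzmk and Prf1 in both libraries, and Gzma in VISTA-KO drops to 30.7 CPM in the clonotypes of 100 or more cells.

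Single clonotypes differed widely. Over the 23 WT clonotypes of 20 or more cells, Gzma ranged from 0 to 1955 CPM with a median of 69.2 CPM, and over the 12 VISTA-KO clonotypes from 0 to 1496 CPM with a median of 28.4 CPM. It was under 100 CPM in 12 of the 23 and 10 of the 12, and at 400 CPM or more in 10 of the 23 and in 1 of the 12, with few in between. The largest WT clonotype was among the high ones and the next in size (318 cells) stood at 13.6 CPM. Gzmb ranged from 242.5 to 2877 CPM in WT, with a median of 947.2 CPM, and from 166.2 to 3765 CPM in VISTA-KO, with a median of 1246 CPM. The 3 highest VISTA-KO clonotypes, with 291, 147 and 32 cells, were at 3078, 3498 and 3765 CPM, above each of the 23 in WT, and the 9 others lay within the WT range or below it. Gzmk had medians of 701.3 and 671.1 CPM and Prf1 of 175.5 and 197.8 CPM, with ranges of 109.0 to 1390 and 71.0 to 1209 CPM for Gzmk and 61.9 to 885.4 and 118.1 to 649.3 CPM for Prf1. The clonotypes of the libraries thus overlapped for each of these genes.

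**Figure D4:**
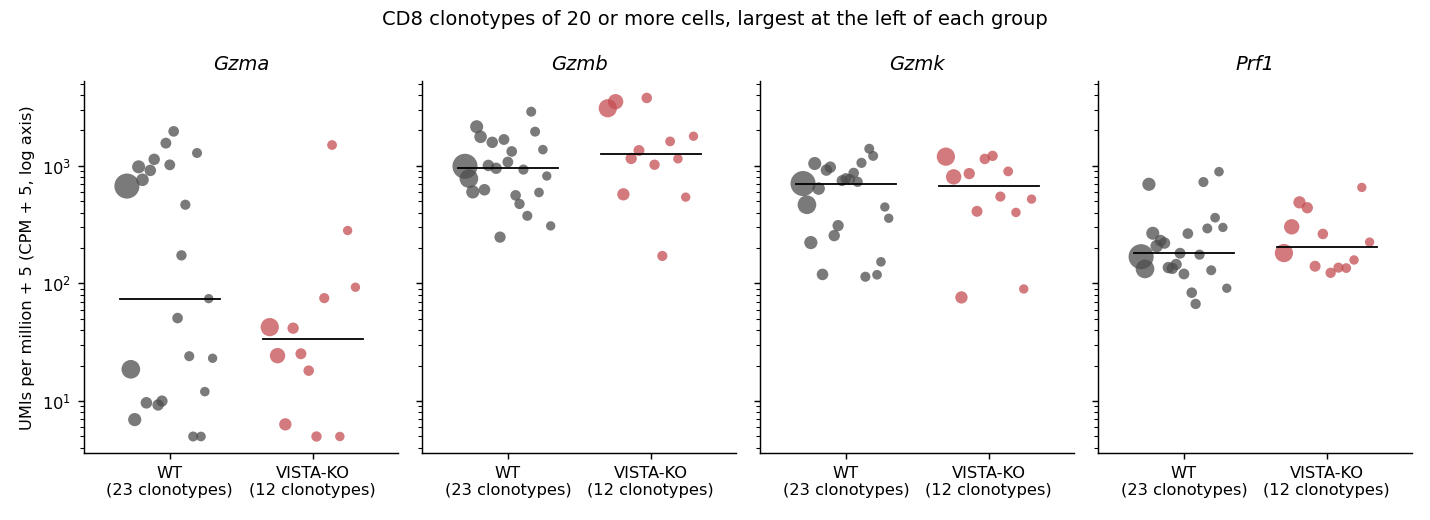
Level (CPM + 5, log axis) of Gzma, Gzmb, Gzmk and Prf1 in each CD8 clonotype of 20 or more cells, 23 in WT and 12 in VISTA-KO. Each point is 1 clonotype, its area grows with its number of cells, the largest stands at the left of its group, and lines mark medians. Gzma is under 100 CPM in 12 of the 23 WT and 10 of the 12 VISTA-KO clonotypes, and 3 VISTA-KO clonotypes exceed the WT range for Gzmb.

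Across these clonotypes Gzmk and Prf1 ran in opposite directions in both libraries, with a Pearson r over log2(CPM + 5) of -0.53 over 23 clonotypes in WT and -0.61 over 12 in VISTA-KO. Gzmb and Gzmk ran together, with 0.57 and 0.53. Gzma and Gzmk ran together in WT, with 0.70, and not in VISTA-KO, with 0.01. Over single CD8 cells, Gzmk and Prf1 instead ran weakly together, with a Pearson r of 0.11 in WT and 0.18 in VISTA-KO. Clonotypes of 1 library share its depth and free RNA, and their median UMIs moved with the genes. In WT, r with the log2 median UMIs was -0.83 for Gzma, -0.86 for Gzmk, -0.44 for Gzmb and 0.48 for Prf1, and in VISTA-KO it was -0.23, -0.44, 0.10 and 0.77. The share of cells with a Mki67 or Top2a UMI moved with the genes too. In WT, r with that share was -0.77 for Gzma, -0.73 for Gzmk, -0.50 for Gzmb and 0.39 for Prf1, and in VISTA-KO it was -0.27, -0.22, 0.14 and 0.46. The part of depth and of cell division in these relations was not tested. Among 5719 genes, the 3 most alike Gzmk over clonotypes in both libraries were Slc9a3r1 (r of 0.89 in WT and 0.91 in VISTA-KO), Il16 (0.88 and 0.89) and H2-D1 (0.87 and 0.88). Those most alike Gzma were Bcap31 (0.76 and 0.77), Atp2b1 (0.76 and 0.75) and Gpr18 (0.85 and 0.72). Those most alike Gzmb were Klrg1 (0.82 and 0.70), Cyba (0.77 and 0.67) and Grap2 (0.67 and 0.69), and those most alike Prf1 were Slc35b2 (0.67 and 0.70), Sacm1l (0.72 and 0.65) and Fkbp1a (0.65 and 0.74).

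CD8 cells split by a UMI of 1 further gene showed where each transcript lay, with the depth beside it because a deeper cell more often holds such a UMI. Cells with a UMI of Havcr2, the gene of the checkpoint receptor TIM-3, had 333.1 CPM of Prf1 in WT against 125.0 CPM in cells without (median UMIs of 9714 and 4458) and 350.1 against 121.1 CPM in VISTA-KO (7737 and 4744). Gzmb in them was at 890.5 CPM in WT against 2188 CPM in VISTA-KO, against 693.4 and 982.2 CPM in cells without. Gzma went the other way in both libraries, at 170.0 against 420.0 CPM in WT against 101.3 against 252 CPM in VISTA-KO. Cells with a UMI of Cx3cr1, a receptor of circulating effector cells, were the richest in Gzma, with 872.9 and 769.8 CPM against 215.8 and 123.2 CPM in cells without (median UMIs of 6677 and 4717 in WT, 6004 and 5129 in VISTA-KO). Cells with a UMI of Tcf7, a transcription factor of stem-like and naive T cells, had Gzmb at 467.8 CPM in WT against 584.2 CPM in VISTA-KO, against 941.7 and 1814 CPM in cells without, at similar median UMIs (4831 and 4807 in WT, 5079 and 5268 in VISTA-KO). Cells with a Ccr2 UMI had more Gzmb, at 1002 and 1861 CPM against 575.9 and 1021 CPM, and more Gzmk, at 600.1 and 653.4 CPM against 355.0 and 392.4 CPM (median UMIs of 4909 and 4718 in WT, 5541 and 4972 in VISTA-KO).

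The rare genes of the chromosome 14 group were split in the same way, but few cells set their levels. Of the Gzmf UMIs of CD8 cells, 10 cells held 90.0% in WT and 95.8% in VISTA-KO. For Gzmc, 10 cells held 54.9% and 85.1%. How far the splits rest on these cells was not tested, and the intervals cover counting error only. Gzmf was at 50.2 CPM (43.0 to 58.2) in the 195 WT CD8 cells with a UMI of Spp1, the osteopontin gene, against 2.22 CPM in cells without, and at 124.0 CPM (108.6 to 141.1) in the 111 of VISTA-KO against 4.80 CPM. Their median UMIs were 15479 and 14166 against 4723 and 5120. Gzmc was higher in cells with a UMI of the chemokine gene Xcl1, at 12.9 against 3.46 CPM in WT against 57.7 against 5.56 CPM in VISTA-KO, whereas Gzmb was lower in them, at 345.6 against 855.4 CPM and at 847.0 against 1510 CPM. Median UMIs were 7039 with an Xcl1 UMI against 4636 in WT, and 6327 against 5044 in VISTA-KO. Over single CD8 cells, Gzmd correlated with Gzme at a Pearson r of 0.80 in WT and 0.46 in VISTA-KO, and with Gzmf at 0.24 and 0.61, which rests on the 4 cells of each library with a Gzmd UMI.

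In regulatory cells, Gzmb was higher in those with a UMI of Itgae, the gene of CD103, at 777.1 CPM in WT against 491.9 CPM in those without and at 1389 against 879.5 CPM in VISTA-KO. Those with a UMI of Il1rl1, the gene of the interleukin 33 receptor ST2, were at 990.4 against 580.6 CPM and at 1309 against 1054 CPM. Median UMIs were higher with the UMI of either gene, 9501 against 8058 for Itgae and 10922 against 8590 for Il1rl1 in WT, and 6510 against 5622 and 6694 against 5836 in VISTA-KO.

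At 2000 UMIs per cell, few single cells held UMIs of 3 or more granzyme genes. Thinning lowers such counts. A Gzmk UMI was found in 51.7% of thinned against 69.3% of unthinned WT CD8 cells, and a Gzmb UMI in 45.6% against 58.8%. The number of genes per cell was not counted at greater depth. The granzyme genes with a UMI were counted per cell, without Prf1. Of CD8 cells thinned to 2000 UMIs, 29.0% in WT and 31.8% in VISTA-KO held a UMI of none of them. A UMI of 1 was held by 36.7% and 31.8%, of 2 by 25.8% and 31.4%, and of 3 or more by 8.46% and 5.01%. In regulatory cells 49.2% and 50.2% held none, 10.2% and 5.62% held 2 and 2.21% and 0.579% held 3 or more, and in conventional CD4 cells 65.8% and 69.5% held none. Of the CD8 cells with a Gzmb UMI, 61.6% in WT and 60.1% in VISTA-KO also held one of Gzmk, against 51.7% and 46.1% of all thinned CD8 cells. Prf1 was found in 30% and 32.7% of them, against 23.3% and 24.3% of all. Of the cells with a Gzma UMI, 75.8% and 82.0% held one of Gzmb.

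**Figure D5:**
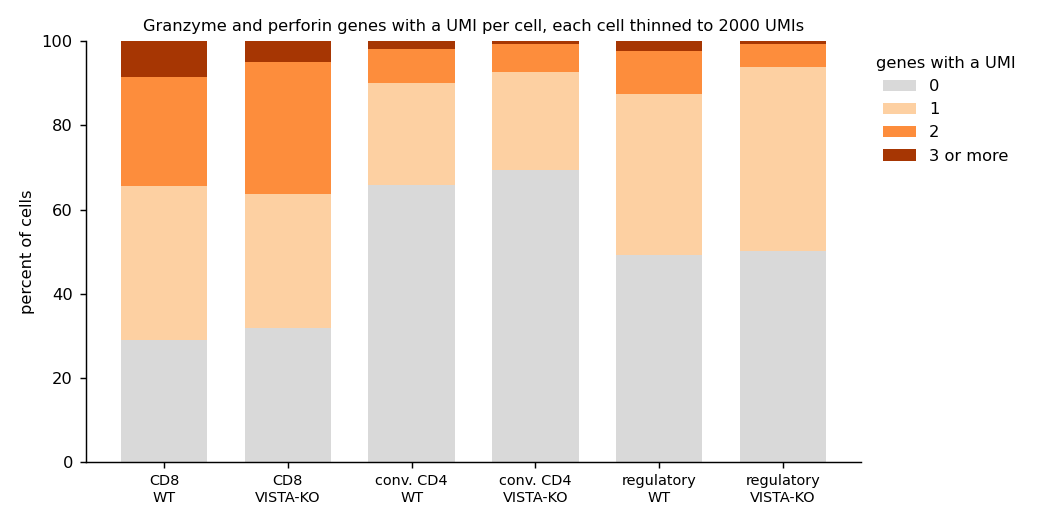
Percent of cells with UMIs of 0, 1, 2 or 3 or more of the granzyme genes, each cell thinned to 2000 UMIs, by class and library. Prf1 is not counted, although the title names perforin. CD8 cells with 3 or more make up 8.46% in WT and 5.01% in VISTA-KO, and those with 2 make up 25.8% and 31.4%.

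Other genes of the cytotoxic granule and its control were compared in the same way. Of a list of 25 genes, all at 20 CPM or more, 1 was called higher and 0 lower in CD8 cells, against 0.824% and 0.594% of all genes, with a median log2 ratio of 0.04 beside -0.03 for all genes. The one called was Ifng, the interferon gamma gene, at 208.9 CPM in WT against 333.1 CPM in VISTA-KO, which gave a ratio of 1.59 (1.55 to 1.64). Srgn, the proteoglycan that packs granzymes, had a ratio of 1.11 (1.10 to 1.13). Nkg7, a granule membrane protein, had 1.03 (1.02 to 1.04), and Ctsc, the protease that activates granzymes, 0.920 (0.879 to 0.964). The serpin genes Serpinb9 and Serpinb6b, which encode granzyme inhibitors, had 1.03 (0.978 to 1.09) and 0.827 (0.784 to 0.872). In conventional CD4 cells, where 1.01% of all genes were called higher and 1.1% lower, 1 was called higher, the transcription factor gene Bhlhe40 (1.58, 1.53 to 1.63), and 1 lower, the cystatin F gene Cst7 (0.642, 0.601 to 0.687). In regulatory cells, where 1.93% and 1.79% of all genes were called, 0 were called higher and 1 lower, again Cst7 (0.623, 0.588 to 0.659), with a list median of -0.21 and CD8 chain UMIs that differed as above.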

How the data were processed

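The authors made the deposited UMI count matrices and receptor contig tables from 1 library per genotype with Cell Ranger, and the processing notes also name Seurat 4. The deposited counts were not normalized. Only reads that fit 1 gene are counted, which lowers genes with near-identical copies. WT held 10337 cell barcodes and 72098984 UMIs and VISTA-KO 10085 and 59916814. Cells with under 600 genes (113 and 139) or 30% or more mitochondrial UMIs were left out. Doublets (10.2% and 11.4%) were cells above the 92nd percentile of the scrublet score (scanpy 1.11.5) or with 2 or more beta chains, since scrublet's own threshold marked 0 cells; they were kept, with their removal as an alternative.

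UMIs were summed per library and class and given as CPM. Since each genotype was 1 library, no test across samples was made and no p-value is given. Ratios were formed from summed UMIs, and genes were called past 1.5-fold on log2(CPM + 5) at 20 CPM or more. Clonotypes joined the V gene and CDR3 nucleotides of the alpha and beta chain with most UMIs. The named genes were all 10 members, the granule genes past 1.5-fold in CD8 cells with Nkg7, Srgn, Ctsc, Serpinb9 and Serpinb6b, and the 3 genes most alike each member over clonotypes. Bhlhe40 and Cst7 were named after their values were seen. The members, lists and gates were chosen with earlier results of these data known. Alternatives changed the class rule, doublets, dividing cells, thinning, weighting, pseudocount, the minimum CPM and the largest clonotype. The ratio script was tested on simulated counts. NumPy 2.4.6, SciPy 1.17.1, pandas 2.3.3 and Biopython 1.88 were used under Python 3.11.15. Promoter sequences are from RefSeq (GRCm38.p6), in which all 10 genes were found. One of the subsets of CD8 cells is not reported here.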

Additional observations from a re-analysis of the deposited data

Results flagged for a closer look

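Gzmk gave ratios on either side of 1 in different classes, past 1.5-fold only in regulatory cells. Its ratio of VISTA-KO over WT was 1.10 in CD8 cells, which fell below 1 when cells were thinned or weighted alike, against 0.738 in conventional CD4 cells and 0.549 in regulatory cells. In regulatory cells without a CD8 chain UMI it was 2.06, with the gene in 1.87% and 3.18% of thinned cells, and no difference is read there. A Gzmk UMI was held by 51.7% of thinned CD8 cells in WT and 46.1% in VISTA-KO. With 1 library per genotype the differences were not tested.

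Gzma differed between the libraries in its relation to clonotype size. Clonotypes of 20 or more cells had 3.21 times the level of cells alone in theirs in WT and 0.480 times in VISTA-KO, and the difference was not tested. In WT the log2 ratio fell from 1.64 to 0.81 without the largest clonotype. In VISTA-KO it turned to 0.09 when each clonotype had the same weight. The largest WT clonotype gave 26.9% of the Gzma UMIs of WT CD8 cells and the largest VISTA-KO clonotype 1.51% of those of VISTA-KO.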

How the results depend on the processing

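No paired analysis was possible because each genotype was 1 library, and leaving out a replicate was not possible for the same reason. In CD8 cells 1 gene was higher and 1 lower past 1.5-fold. The higher count became 3 with genes at 5 CPM or more, where 0.968% of 9298 genes were higher and 0.688% lower, and 2 in cells alone in their clonotype. The gene added in the cells alone was Gzmc, at 8.43 CPM in WT against 41.4 CPM in VISTA-KO. It reached 20 CPM only in VISTA-KO and could only be called higher. The lower count became 0 without the largest clonotype, without the 2 largest and in cells alone, where the log2 ratio of Gzma turned to 0.26. In conventional CD4 cells the lower count of 1 became 2 where classes needed 2 UMIs and 0 as a mean over cells. Without cells with a Cd8a or Cd8b1 UMI it became 0, the higher count of 0 became 1, and the log2 ratio of Prf1 turned to 0.28. The gene called higher was Gzma, which reached 20 CPM only in VISTA-KO (19.3 against 48.5 CPM) and could only be called higher. In regulatory cells without such UMIs the counts of 1 higher and 3 lower became 3 and 0, with Gzma at 1.03 and Gzmk at 0.78. There Gzma (9.38 against 24.5 CPM) and Gzmk (10.7 against 22.1 CPM) reached 20 CPM only in VISTA-KO. Both could only be called higher, and no difference is read for them. In VISTA-KO clonotypes of 20 or more cells the lower count of 3 became 1 as a mean over clonotypes, with Gzma turned to 0.0945. The share of all genes called was taken only under the main settings and, for CD8 cells, at the limit of 5 CPM. Counts under the other alternatives have no such share beside them and are not read as results about the members. The cause of these changes was not tested. The alternatives without the 2 largest clonotypes, in cells alone and without CD8 chain UMIs were chosen after seeing the data. Of the log2 ratios under all alternatives, 39 of 44 kept their direction in CD8 cells, 32 of 36 in conventional CD4 cells, 34 of 36 in regulatory cells, 24 of 24 for clonotype size in WT and 35 of 36 in VISTA-KO. A clonotype number given by the pipeline could not be used, since that column was empty. Depth limits the genes under 20 CPM, whose levels rest on few cells, and Siglech cells, with 221 and 138 cells.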
